A study of Mus musculus with 27 samples.

Results

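Angptl6, Egfem1 and Pcsk6 were followed in hepatic stellate cells (HSCs) of the mouse liver. They are 3 of the 53379 genes in the count table and 3 of the 18758 that passed the filter on low counts. They were chosen from these data, as the genes with the lowest chronic 24 h level relative to healthy HSCs among well measured genes. Of 559 lower genes that qualified, the 3 had log2 fold changes of -5.29, -5.28 and -5.00 in that comparison, and Mapt, at -4.84, was the first gene outside. Every value of these 3 genes that involves the healthy or the chronic 24 h group is therefore given as a description, with no test. Tests in comparisons that hold these groups are given only for other genes.

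HSCs are the perisinusoidal cells of the liver that store vitamin A. After injury they lose their lipid droplets and turn into collagen-producing, contractile cells, and after the injury ends many of them return towards their earlier state. Angptl6 encodes a secreted protein of the angiopoietin-like family, also known as angiopoietin-related growth factor, which acts on blood vessels and on energy metabolism. Pcsk6 encodes PACE4, a secreted subtilisin-like proprotein convertase that binds the extracellular matrix and cuts precursors of growth factors and proteases after basic residues. Egfem1 encodes a protein with EGF-like and EMI domains, of which little is known.

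Male Balb/c mice received carbon tetrachloride (CCl4), a hepatotoxin, by the intraperitoneal route at 0.5 µL per gram of body weight in mineral oil. Acute injury was 1 injection at 10 to 12 weeks of age, with HSCs taken after 24 h (n = 3), 72 h (n = 4) or 7 days (n = 4). Chronic injury was a semi-weekly course of 4 weeks begun at 8 to 10 weeks of age, with HSCs taken 24 h, 72 h or 14 days after it (n = 4 each). The healthy group (n = 4, 10 to 12 weeks) was left untreated, so it had no injection of oil alone. The cells were sorted by their vitamin A fluorescence under UV light and lysed without culture, and the libraries are bulk RNA-seq.

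Genes received between 6.31 M and 13.05 M counts per library. Depth was under 9 M in 8 of the 27 libraries, which were the 4 of chronic 14 d and 2 each of chronic 24 h and chronic 72 h. All 12 stellate cell markers were detected in every group, with a summed level of 25150 to 31040 CPM (counts scaled to a library total of 1 M) in healthy and 9333 to 9862 CPM in chronic 24 h libraries. Lrat, the enzyme that esterifies retinol, averaged 1794 CPM in healthy and 1087 CPM in chronic 24 h HSCs. Acta2, the smooth muscle actin of activated HSCs, averaged 3.13 CPM in healthy, 234 CPM in acute 24 h, 1545 CPM in chronic 24 h and 4.98 CPM in chronic 14 d libraries. Markers of other liver cells were present and moved with the groups, and their summed levels stand beside the results below.

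On GRCm38, Angptl6 (ENSMUSG00000038742) lies at chr9:20873808-20879727 on the minus strand, with 1 annotated transcript of 6 exons and 1.58 kb of exon. Egfem1 (ENSMUSG00000063600) spans 609 kb at chr3:29082023-29691209 on the plus strand, with 7 transcripts of which 5 are coding. Pcsk6 (ENSMUSG00000030513) spans 189 kb at chr7:65861734-66050386 on the plus strand, with 6 transcripts of which 4 are coding. Because the 3 genes were chosen for their low level in the same group, the sequences around their starts are shown, 1 window per gene, as given by RefSeq for GRCm38.p6. Each window runs from 250 bases before to 50 bases after the start, reads 5′ to 3′ on the strand of the gene, and has matches to the searched motifs in capitals.
Angptl6 promoter, chr9:20879661-20879960, minus strand: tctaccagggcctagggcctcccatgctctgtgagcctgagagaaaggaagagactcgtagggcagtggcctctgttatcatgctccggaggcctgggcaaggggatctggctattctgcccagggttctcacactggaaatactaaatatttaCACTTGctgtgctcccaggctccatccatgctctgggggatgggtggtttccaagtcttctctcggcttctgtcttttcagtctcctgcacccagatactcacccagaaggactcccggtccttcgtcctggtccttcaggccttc
Egfem1 promoter, chr3:29082281-29082580, plus strand: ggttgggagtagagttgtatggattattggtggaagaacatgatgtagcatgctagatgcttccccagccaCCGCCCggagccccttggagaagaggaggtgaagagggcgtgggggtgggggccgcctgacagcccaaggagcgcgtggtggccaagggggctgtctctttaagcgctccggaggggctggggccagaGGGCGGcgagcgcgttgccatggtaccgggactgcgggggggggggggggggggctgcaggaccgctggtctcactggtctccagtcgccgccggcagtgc
Pcsk6 promoter, chr7:65861886-65862185, plus strand: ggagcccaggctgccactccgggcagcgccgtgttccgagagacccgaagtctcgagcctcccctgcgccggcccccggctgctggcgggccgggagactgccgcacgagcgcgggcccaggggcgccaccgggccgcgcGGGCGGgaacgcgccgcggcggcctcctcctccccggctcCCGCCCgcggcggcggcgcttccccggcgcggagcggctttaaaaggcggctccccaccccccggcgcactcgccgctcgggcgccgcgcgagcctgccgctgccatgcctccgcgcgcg

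The windows differed in composition. GC content was 55.7% for Angptl6, 67.3% for Egfem1 and 81.7% for Pcsk6, where the median of 32851 windows was 52.7%, and 99.4% of windows had a lower GC content than that of Pcsk6. The capitals mark 1 E-box (CANNTG) in Angptl6, its first base at -96 from the start, and GC boxes (GGGCGG, on either strand) at -179 and -51 in Egfem1 and at -110 and -70 in Pcsk6. A second RefSeq start of Egfem1, with the window chr3:29081537-29081836, has E-boxes at -133 and 32. E-boxes occurred in 72.3% and GC boxes in 35.7% of all windows. None of the 4 windows held TATAAA (13.6% of all windows), the AP-1 site TGANTCA (7.81%), the TEAD site GGAATG (14.7%), the GATA site AGATAA (11.2%), the nuclear receptor half-site AGGTCA (16.3%) or the homeobox site TAATTA (5.29%), with both strands searched. No motif was found in the windows of all 3 genes.

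Angptl6 was the most abundant of the 3 in healthy HSCs, per length as well as in all. Its level there was 880 ± 192 CPM per kb of exon (SD, n = 4), against 32.5 CPM per kb for Egfem1 and 41.0 CPM per kb for Pcsk6. The 4 healthy libraries held 1496, 1271, 1756 and 1048 CPM of Angptl6. At acute 24 h the 3 libraries held 111, 159 and 92.0 CPM, and at chronic 24 h the 4 libraries held 51.4, 28.7, 33.0 and 29.4 CPM. The highest chronic 24 h library was thus below the lowest of every other group. Angptl6 ran at 193, 207, 82.3 and 74.3 CPM at acute 72 h and at 204, 129, 368 and 334 CPM at acute 7 d. After the chronic course it stood at 243, 230, 171 and 147 CPM at 72 h and at 590, 536, 432 and 487 CPM at 14 d. The chronic 14 d mean was 36.7% of the healthy mean, the chronic 72 h mean 14.2% and the chronic 24 h mean 2.56%, and no chronic library overlapped the healthy ones.

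Egfem1 had a different early course. The healthy libraries held 151, 134, 124 and 135 CPM, and the acute 24 h libraries 71.3, 67.8 and 68.6 CPM, so that 50.9% of the healthy mean was left at a time when Angptl6 stood at 8.67% and Pcsk6 at 8.88%. The spread of Egfem1 at acute 24 h was narrow, with an SD of 1.85 CPM around a mean of 69.2. At acute 72 h it was at 20.6, 25.5, 16.1 and 17.1 CPM, and at acute 7 d at 10.8, 8.53, 14.0 and 20.2 CPM. Its low point was chronic 24 h, with 2.70, 3.02, 3.25 and 4.80 CPM, which were 18, 22, 37 and 60 counts. Chronic 72 h libraries held 7.87, 9.72, 5.68 and 4.54 CPM, the lowest of which lay inside the chronic 24 h range. At chronic 14 d Egfem1 stood at 29.6, 30.4, 21.2 and 37.3 CPM, or 21.8% of the healthy mean.

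Pcsk6 held 191, 212, 252 and 196 CPM in healthy HSCs. By acute 24 h it was at 31.4, 12.1 and 13.2 CPM, the first replicate standing above the other two. Acute 72 h libraries held 19.9, 16.9, 34.0 and 32.1 CPM, and acute 7 d libraries 17.2, 18.0, 22.4 and 33.3 CPM. The 3 acute groups overlapped throughout for this gene. Chronic 24 h libraries held 7.35, 5.63, 6.05 and 7.52 CPM, from 41 to 94 counts, and all lay below every other library. Pcsk6 reached 24.8, 14.7, 25.3 and 10.7 CPM at chronic 72 h and 55.9, 72.0, 74.5 and 53.6 CPM at chronic 14 d, the latter 30.1% of the healthy mean.

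**Figure D1:**
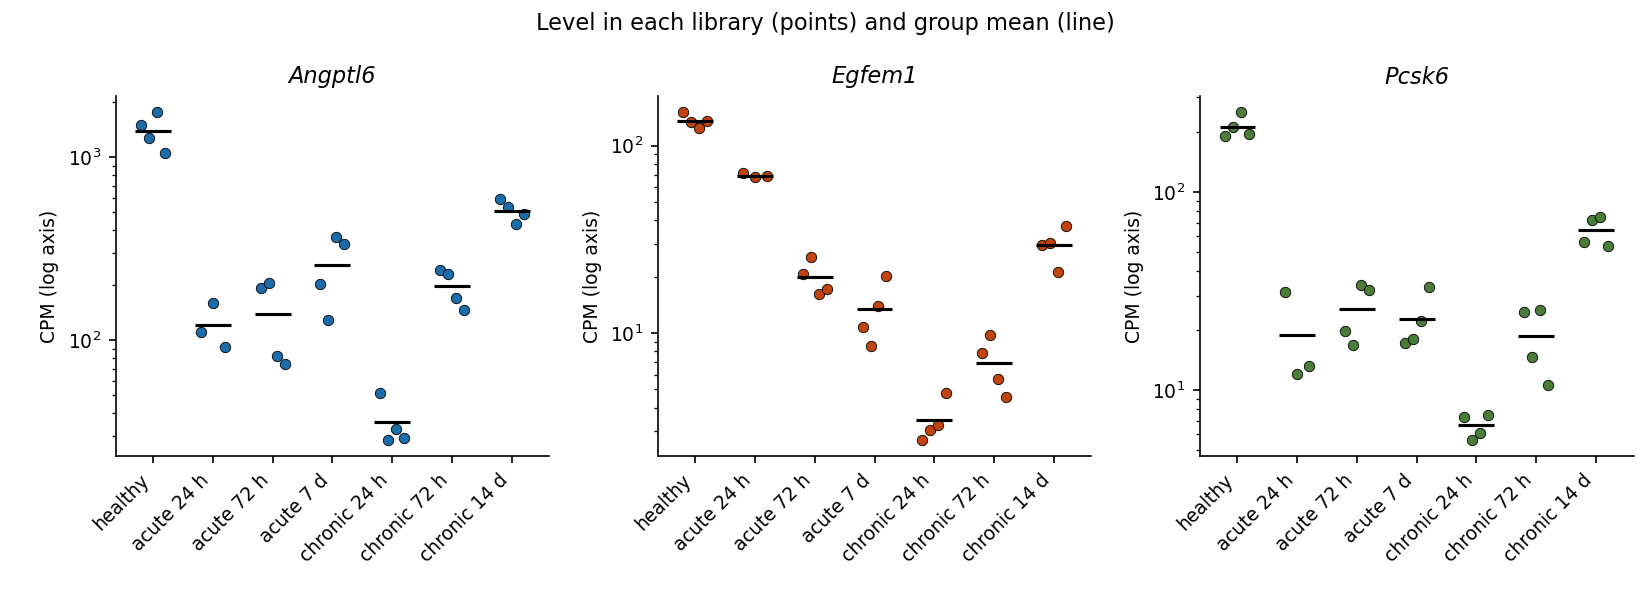
Level of Angptl6, Egfem1 and Pcsk6 in CPM on a log axis, by group, with 1 point per library and a line at the group mean. The chronic 24 h points are the lowest group for each gene (means 35.6, 3.44 and 6.64 CPM), and Egfem1 at acute 24 h (mean 69.2 CPM) sits closer to healthy than the other genes do.

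Ordered by their means, the groups ran healthy, chronic 14 d, acute 7 d, chronic 72 h, acute 72 h, acute 24 h and chronic 24 h for Angptl6. Neighbours from acute 7 d down to acute 24 h overlapped, and the first pairs and the last did not. For Pcsk6 the order was healthy, chronic 14 d, acute 72 h, acute 7 d, acute 24 h, chronic 72 h and chronic 24 h, with overlap between neighbours from acute 72 h to chronic 72 h. For Egfem1 acute 24 h took the second place, ahead of chronic 14 d, and every neighbouring pair from chronic 14 d downwards overlapped. Relative to healthy, the log2 fold changes of Angptl6, Egfem1 and Pcsk6 were -3.53, -0.97 and -3.49 at acute 24 h, -3.33, -2.78 and -3.05 at acute 72 h, and -2.43, -3.35 and -3.22 at acute 7 d, with standard errors (SE) between 0.26 and 0.41. After the chronic course they were -2.82, -4.30 and -3.50 at 72 h and -1.45, -2.20 and -1.73 at 14 d. All of these comparisons share the healthy libraries. The 3 are among the genes called lower at chronic 24 h by the rule that chose them, and 8.11% of all genes were called lower there. In the libraries of higher depth alone, the chronic 24 h differences from healthy were -5.47 for Angptl6, -5.06 for Egfem1 and -4.95 for Pcsk6.

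Markers of other cells moved between healthy and chronic 24 h. Summed macrophage markers (10 genes) ran from 143 to 584 CPM in healthy, where Marco was at 0, and from 520 to 3536 CPM in chronic 24 h libraries. Cholangiocyte markers (6 genes) ran from 56.7 to 106 CPM and from 563 to 1297 CPM, and mesothelial and portal fibroblast markers (7 of 8 tested) from 104 to 168 CPM and from 467 to 653 CPM. That last sum followed Fbln2 (means of 4.58 and 206 CPM), Eln (98.0 and 193 CPM), Wt1 and Cd34. Mean Upk3b was 3.17 and 2.28 CPM, and mean Gpm6a 3.17 and 3.65 CPM. Hepatocyte markers (10 genes), at 606 to 4123 CPM and 606 to 2639 CPM, overlapped, as did liver sinusoidal endothelial markers (10 genes), at 189 to 583 CPM and 71.4 to 255 CPM. Their part in the low levels of the 3 genes was not tested. In bulk samples, fewer cells of a type and less RNA per cell cannot be told apart.

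The time course after a single injection asked how the genes moved between groups that had no part in their choice. Here and below a gene was called at an adjusted p below 0.05 in edgeR's quasi-likelihood test over all genes and a change above 2-fold. Between 24 h and 72 h Egfem1 fell by 1.81 on the log2 scale (SE 0.26, edgeR adjusted p = 2.20e-05), lower in 4 of 4 acute 72 h libraries. Angptl6 differed by 0.20 (SE 0.36, edgeR adjusted p = 0.747) and Pcsk6 by 0.45 (SE 0.33, edgeR adjusted p = 0.364). Thus 1 of 3 was called where 15.0% of all genes were. The Pcsk6 value rested on acute 24 h replicate 1, without which the difference was 1.03 and was called (edgeR adjusted p = 0.0369). That of Angptl6 was -0.05 without acute 72 h replicate 2.

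At acute 72 h, Angptl6 and Pcsk6 split the libraries in opposite ways. Replicates 1 and 2 were high in Angptl6 (193 and 207 CPM) and low in Pcsk6 (19.9 and 16.9 CPM), and replicates 3 and 4 were low in Angptl6 (82.3 and 74.3 CPM) and high in Pcsk6 (34.0 and 32.1 CPM). The ratio of Angptl6 to Pcsk6 counts within these libraries therefore ran from 2.31 to 12.3, the widest spread of the 7 groups. Egfem1 was higher in replicates 1 and 2 (20.6 and 25.5 CPM) than in replicates 3 and 4 (16.1 and 17.1 CPM).

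Between 24 h and 7 days after the injection, Egfem1 fell by 2.37 (SE 0.26, edgeR adjusted p = 3.89e-07), with no overlap. Angptl6 rose by 1.10 (SE 0.36, edgeR adjusted p = 0.0187), although the libraries overlapped, and Pcsk6 differed by 0.27 (SE 0.33, edgeR adjusted p = 0.539). This made 1 of 3 called lower, against 9.24% of all genes, and 1 of 3 called higher, against 17.8%. The Angptl6 call was lost when acute 24 h replicate 1 or 3 or acute 7 d replicate 3 or 4 was left out, where the difference was 1.04, 0.94, 0.88 and 0.95. From 72 h to 7 days edgeR called 0 of the 3, where 7.80% of all genes were called, and DESeq2 called 0 as well, although 2 had an unadjusted edgeR p below 0.05. Angptl6 differed by 0.90 (SE 0.33, edgeR adjusted p = 0.0755), Egfem1 by -0.57 (SE 0.24, edgeR adjusted p = 0.131) and Pcsk6 by -0.18 (SE 0.30, edgeR adjusted p = 0.752). Angptl6 was called without acute 72 h replicate 2 (1.15) or acute 7 d replicate 2 (1.12), and the sign of Pcsk6 turned without acute 72 h replicate 3 (0.02).

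Other cells' markers also differed along the acute course. The hepatocyte sum was 113 to 307 CPM at 24 h, 995 to 2706 CPM at 72 h and 2417 to 3390 CPM at 7 days. The macrophage sum was 142 to 204 CPM, 295 to 542 CPM and 4024 to 10450 CPM, and the cholangiocyte sum 88.0 to 104 CPM, 132 to 183 CPM and 761 to 4799 CPM. Stellate cell markers summed to 13990 to 19720 CPM, 8986 to 12900 CPM and 9202 to 10530 CPM. Single markers went either way. Ecm1 was highest at 24 h (means of 6667, 2391 and 1854 CPM), and Lrat (1150, 1797 and 1317 CPM) and Lhx2 (145, 357 and 393 CPM) were lowest there. Sinusoidal endothelial markers summed to 205 to 258 CPM, 52.8 to 186 CPM and 263 to 768 CPM. Mesothelial and portal fibroblast markers summed to 53.3 to 95.4 CPM, 208 to 545 CPM and 527 to 616 CPM, with Msln at 0 at 24 h and 72 h and the cholangiocyte marker Krt19 at 0 at 72 h. Their part in the courses of Egfem1 and Angptl6 was not tested.

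Recovery after the chronic course was followed between 72 h and 14 d, and here all 3 genes moved together. Egfem1 rose by 2.10 (SE 0.26, edgeR adjusted p = 9.41e-05), Pcsk6 by 1.76 (SE 0.31, edgeR adjusted p = 0.00399) and Angptl6 by 1.37 (SE 0.33, edgeR adjusted p = 0.0352). The rises were 4.29-fold, 3.39-fold and 2.58-fold. All 4 chronic 14 d libraries lay above all 4 chronic 72 h libraries for each gene, so 3 of 3 were called where 0.901% of all genes were called in either direction. The chronic 14 d libraries were all among the 8 of lower depth. Within that depth class, which leaves 2 chronic 72 h libraries, the differences were 1.77, 1.72 and 1.13 and none was called (edgeR adjusted p = 0.0921, 0.114 and 0.278). The Angptl6 call was also lost with depth class as a term (1.16, edgeR adjusted p = 0.143), and when any 1 library of the 2 groups other than chronic 72 h replicate 1 was left out (1.25 to 1.45). Stellate cell markers summed to 7745 to 10720 CPM at 72 h and 12100 to 16880 CPM at 14 d. Among them Ecm1 (means of 1981 and 4664 CPM), Vipr1 (735 and 1770 CPM) and Rgs5 (662 and 1443 CPM) had higher means at 14 d. Lrat (1578 and 1104 CPM), Pdgfrb (1132 and 1101 CPM) and Nes (67.0 and 56.8 CPM) had lower ones. Endothelial markers summed to 222 to 343 CPM and 443 to 714 CPM, while hepatocyte markers overlapped at 2938 to 4679 CPM and 2169 to 9012 CPM. Macrophage and cholangiocyte markers overlapped too, and the summed mesothelial and portal fibroblast markers were lower at 14 d, at 190 to 278 CPM against 397 to 655 CPM. That sum followed Eln (means of 285 CPM at 72 h and 91.8 CPM at 14 d), Wt1 and Cd34, whereas Upk3b (5.38 and 7.89 CPM) and Gpm6a (7.97 and 12.1 CPM) had higher means at 14 d. Their part in the rises was not tested.

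Relative to chronic 24 h, Angptl6 was 5.56-fold higher at chronic 72 h, Pcsk6 2.84-fold and Egfem1 1.97-fold, the libraries of Egfem1 alone among the 3 overlapping. By chronic 14 d they were 14.4-fold, 9.62-fold and 8.48-fold above chronic 24 h. For Egfem1 the log2 difference between chronic 72 h and chronic 24 h, 0.98, was 0.36 in the libraries of higher depth and 1.65 in those of lower depth.

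**Figure D2:**
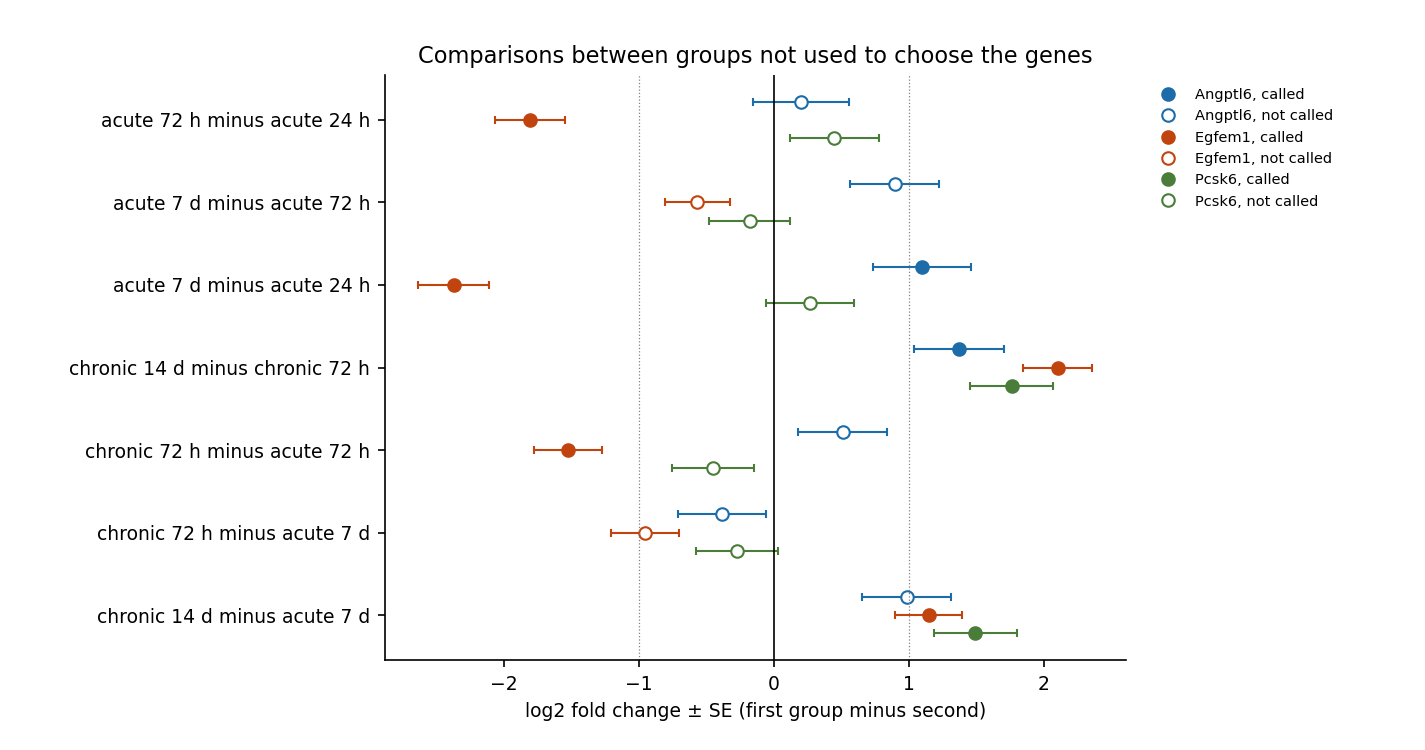
Log2 fold change with its SE (bars) for the 3 genes in the 7 comparisons between groups not used to choose them, with filled points for called differences and dotted lines at 2-fold. The genes lie on the same side, all called, at chronic 14 d minus chronic 72 h (1.37, 2.10 and 1.76), whereas Egfem1 stands alone on the negative side at acute 72 h minus acute 24 h (-1.81).

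Chronic and acute injury were compared at matched and at late times. At 72 h Egfem1 was lower after the chronic course by a log2 fold change of -1.52 (SE 0.25, edgeR adjusted p = 0.000216), in 4 of 4 libraries, and was called. Angptl6 differed by 0.51 (SE 0.33, edgeR adjusted p = 0.326) and Pcsk6 by -0.45 (SE 0.30, edgeR adjusted p = 0.354), so that 1 of 3 was called against 9.12% of all genes. Macrophage markers summed to 295 to 542 CPM at acute 72 h and 959 to 2557 CPM at chronic 72 h, hepatocyte markers to 995 to 2706 CPM and 2938 to 4679 CPM, endothelial markers to 52.8 to 186 CPM and 222 to 343 CPM, and cholangiocyte markers to 132 to 183 CPM and 257 to 844 CPM. Their part in the Egfem1 difference was not tested.

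Chronic 72 h was also set against acute 7 d, the other recovering group. Between these groups edgeR called 0 of the 3 genes and DESeq2 0, with 1 at an unadjusted edgeR p below 0.05, and 0.432% of all genes were called. The 95% interval of the log2 difference ran from -1.06 to 0.29 for Angptl6, from -1.47 to -0.44 for Egfem1 and from -0.90 to 0.36 for Pcsk6. For Egfem1 the difference of -0.96 (SE 0.25) had an edgeR adjusted p of 0.0869. Macrophage markers summed to 4024 to 10450 CPM at acute 7 d and 959 to 2557 CPM at chronic 72 h, without overlap. The sums of the other marker sets overlapped. The part of macrophages in these values was not tested.

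The last groups of the 2 courses, chronic 14 d and acute 7 d, differ in time as well as in the number of injections. Pcsk6 was higher at chronic 14 d by 1.49 (SE 0.31, edgeR adjusted p = 0.00578) and Egfem1 by 1.15 (SE 0.25, edgeR adjusted p = 0.00779), neither overlapping. Angptl6, higher by 0.98 (SE 0.33, edgeR adjusted p = 0.0880), missed the threshold without overlap of the libraries. Thus 2 of 3 were called against 2.94% of all genes. The Egfem1 call was lost without acute 7 d replicate 2 (0.98), where the difference was under 2-fold. With depth class as a term neither call held, at 0.95 for Egfem1 and 1.45 for Pcsk6. Macrophage markers, at 4024 to 10450 CPM at acute 7 d and 784 to 1877 CPM at chronic 14 d, were lower at chronic 14 d, as were cholangiocyte markers (761 to 4799 CPM and 207 to 372 CPM) and the sum of mesothelial and portal fibroblast markers (527 to 616 CPM and 190 to 278 CPM), though not Upk3b (means of 4.10 and 7.89 CPM) or Gpm6a (7.76 and 12.1 CPM). The sum of stellate cell markers, at 9202 to 10530 CPM and 12100 to 16880 CPM, was higher at chronic 14 d. This did not hold for Lrat (means of 1317 and 1104 CPM), Nes (89.3 and 56.8 CPM) or Lhx2 (393 and 386 CPM). The part of these cells in the differences was not tested.

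Ratios of 2 genes within a library do not depend on its depth or scaling. There were 10.1 Angptl6 counts for each Egfem1 count in healthy HSCs (geometric mean), 1.70 at acute 24 h, 6.41 at acute 72 h and 18.8 at acute 7 d. At chronic 24 h the ratio was 10.3, close to that of healthy HSCs, with libraries from 6.12 to 19.1, and it was 29.1 at chronic 72 h and 17.5 at chronic 14 d. Pcsk6 over Egfem1 was 1.56 in healthy, 0.247 at acute 24 h, 1.26 at acute 72 h and 1.96 at chronic 24 h. Angptl6 over Pcsk6 stayed between geometric means of 5.07 (acute 72 h) and 10.9 (chronic 72 h). The acute 24 h libraries lay below all others for both ratios over Egfem1. Exact two-sided permutation tests of the 3 ratios in the 7 comparisons (21 tests) gave no adjusted p below 0.15. The smallest p such a test allows is 0.0286 for 4 libraries against 4 and 0.0571 for 3 against 4.

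**Figure D3:**
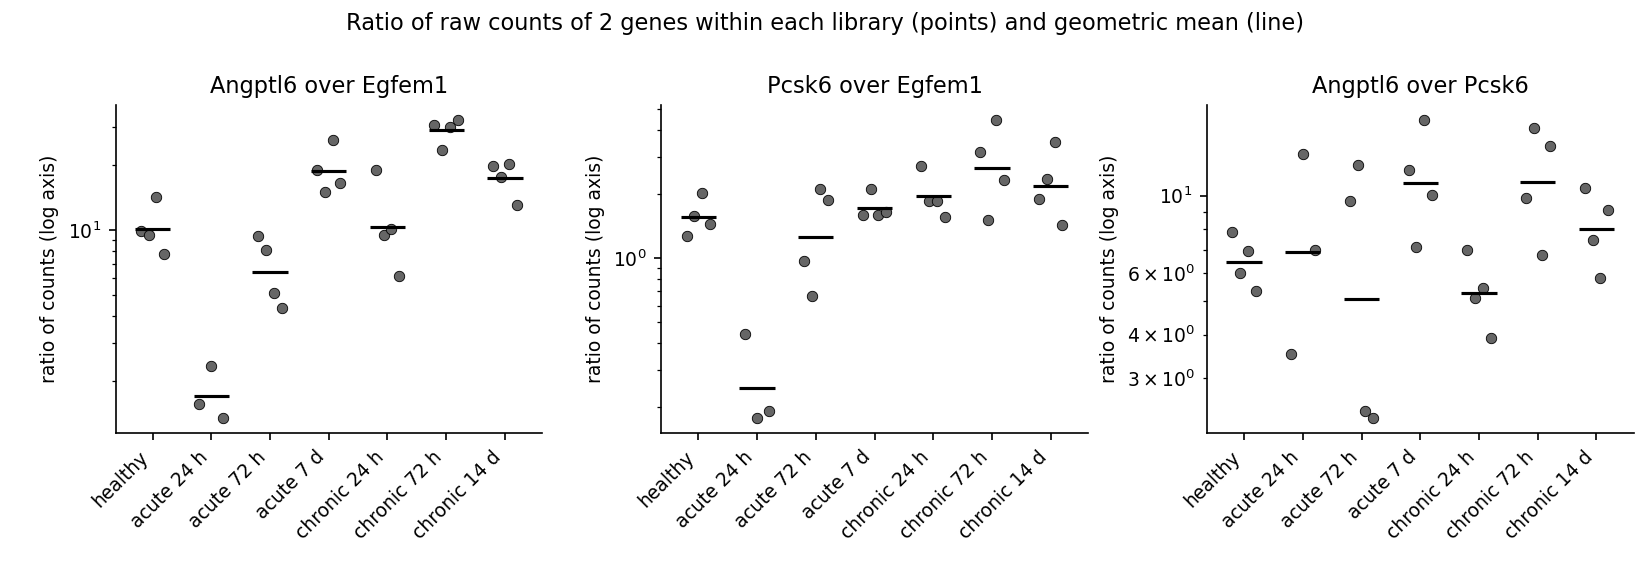
Ratio of the raw counts of 2 of the genes within each library, on a log axis, with 1 point per library and a line at the geometric mean of the group. The acute 24 h points are the lowest for Angptl6 over Egfem1 (1.34 to 2.35) and for Pcsk6 over Egfem1 (0.178 to 0.441).

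Angptl6 was compared with its family, whose members regulate lipoprotein lipase, vessels and inflammation. In healthy HSCs Angptl6 made up 69.5 ± 7.19% (SD, n = 4) of the CPM per kb of 5 family members, ahead of Angptl2 at 357 CPM per kb. Its share at acute 24 h was 14.4 ± 3.18% (SD, n = 3), and Angptl4, an inhibitor of lipoprotein lipase, led at 408 CPM per kb against 76.3 for Angptl6. At chronic 24 h Angptl6 held 7.72 ± 2.39% (SD, n = 4), behind Angptl2 at 154 and Angptl4 at 111 CPM per kb. At chronic 14 d Angptl6 and Angptl2 stood side by side at 323 ± 42.6 and 309 ± 27.4 CPM per kb (SD, n = 4). Among the 4 other members tested and reported, 1 rose and 1 fell at chronic 24 h relative to healthy, where 11.2% of all genes were called higher and 8.11% lower. Angptl4 rose by 3.43 (edgeR adjusted p = 1.45e-06) and Angptl2 fell by 1.22 (edgeR adjusted p = 2.58e-06). The median of the 4 was -0.35 against -0.03 for all genes. At acute 24 h 1 rose (Angptl4, 5.31) and 2 fell (Angptl2 and Angptl8), where 9.41% of all genes were called higher and 12.5% lower. Between chronic 24 h and chronic 14 d 2 rose, Angptl2 (1.01) and Angptl8 (1.44), and Angptl4 fell by 2.69, where 6.65% of all genes were called higher and 6.11% lower. Angptl8 is also made by hepatocytes, whose markers summed to 113 to 307 CPM at acute 24 h and 606 to 4123 CPM in healthy libraries, and their part in its fall was not tested.

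Of the related angiopoietins and Tie receptors, 5 genes tested, 1 rose and 1 fell at chronic 24 h, against 11.2% and 8.11% of all genes. Angpt2, the angiopoietin that destabilises vessels, rose by 3.03 from 2.62 to 21.4 CPM, and its receptor Tek fell by 1.76 from 31.7 to 9.38 CPM (edgeR adjusted p = 4.47e-07 and 0.000192). Both moved back between chronic 24 h and chronic 14 d, Tek rising by 1.79 and Angpt2 falling by 1.57. Of 10 sinusoidal endothelial markers, 5 were called lower and 0 higher at chronic 24 h. Between chronic 24 h and chronic 14 d, 7 were called higher and 0 lower, against 6.65% and 6.11% of all genes. The part of endothelial cells in the Tek values was not tested. The low point of Angptl6 at chronic 24 h is the pattern it was chosen for.

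Pcsk6 was likewise the leading proprotein convertase in healthy HSCs. Its 41.0 CPM per kb were 53.5 ± 4.84% (SD, n = 4) of the sum over 7 convertases, followed by Mbtps1, the site-1 protease of the sterol pathway, at 13.8 and by Furin, the ubiquitous Golgi convertase, at 11.3 CPM per kb. The share of Pcsk6 was 9.95 ± 2.52% (SD, n = 3) at acute 24 h and at chronic 24 h 2.71 ± 0.316% (SD, n = 4), and its rank among the 7 was 4 in both groups. At chronic 14 d the share was 25.1 ± 3.37% (SD, n = 4), with 12.3 CPM per kb against 13.1 for Furin. Of the 6 other convertases tested, 1 fell and none rose at chronic 24 h relative to healthy, with a median log2 difference of 0.19, against 8.11% of all genes called lower and 11.2% higher. The one that fell was Pcsk5, by 1.16 (edgeR adjusted p = 0.000415). Furin differed by 0.96 (edgeR adjusted p = 0.365), its healthy libraries ranging from 33.2 to 206 CPM. The 6 gave 0 calls by edgeR at acute 24 h, with 5 at an unadjusted p below 0.05, where 9.41% of all genes were called higher and 12.5% lower. Between chronic 24 h and chronic 14 d 1 rose, Pcsk4, by 1.17 (edgeR adjusted p = 0.00739), against 6.65% of all genes.

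**Figure D4:**
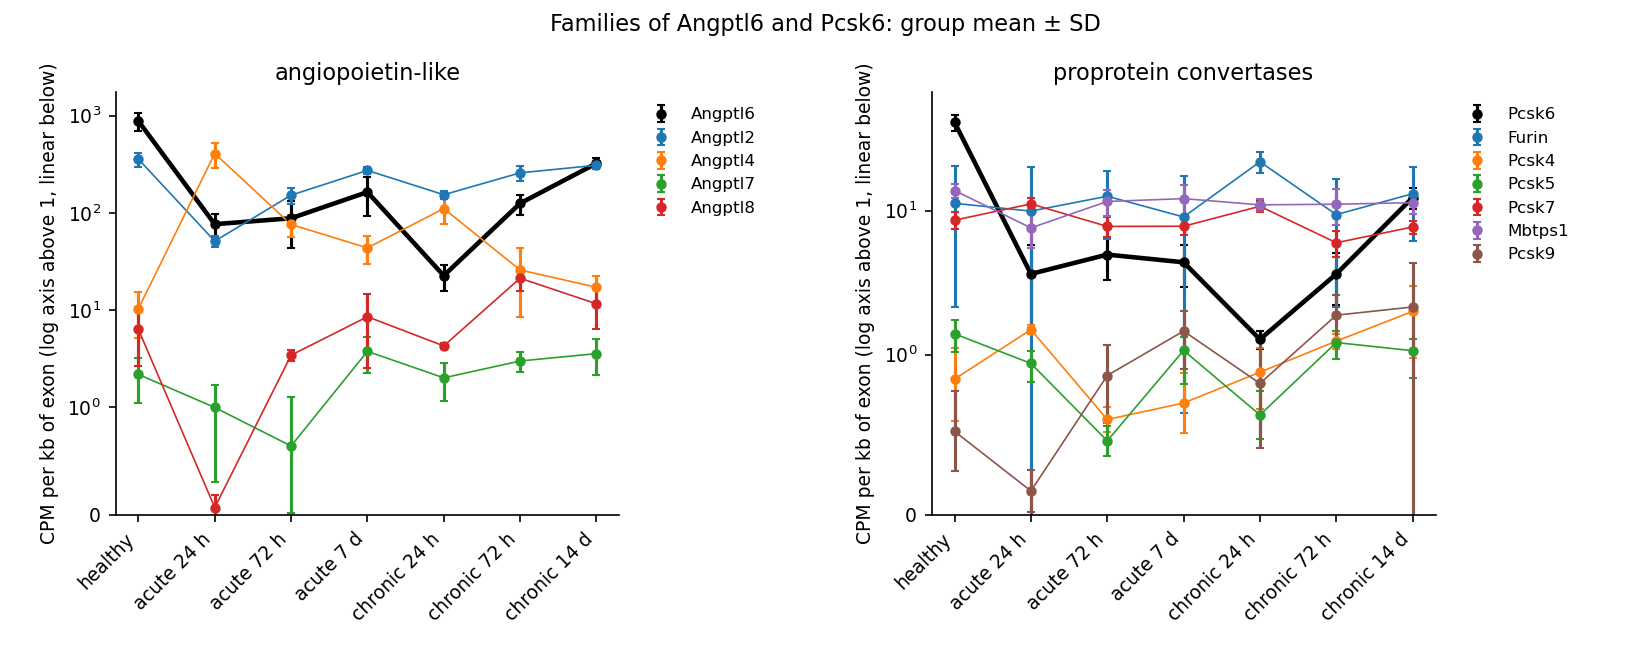
Group mean ± SD in CPM per kb of exon, on an axis that is logarithmic above 1 and linear below, for 5 angiopoietin-like genes and 7 proprotein convertases, with Angptl6 and Pcsk6 in thick black and bars that would pass below 0 cut there. Both start highest in healthy HSCs (880 and 41.0 CPM per kb) and are under other members at chronic 24 h (22.5 and 1.28 CPM per kb).

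Proteins that convertases of this group are known to cut did not move one way. Of 13 tested, 4 rose and 4 fell at chronic 24 h, with a median of -0.03, where 11.2% of all genes were called higher and 8.11% lower. Those that rose were Itga5 (3.02), an integrin of fibronectin, Adamts4 (2.29), an aggrecanase, Lefty1 (1.94), an inhibitor of Nodal, and Mmp14 (1.82), a membrane-bound collagenase. Bmp4 (-2.26), Notch1 (-1.52), Bmp6 (-1.35) and Insr (-1.16) were called lower. In acute 24 h HSCs 3 rose and 2 fell, against 9.41% and 12.5% of all genes, and between chronic 24 h and chronic 14 d 2 rose and 4 fell, against 6.65% and 6.11%. Bmp4, a growth factor of the TGF-beta family, held 197 CPM in healthy, 41.0 CPM at chronic 24 h and 122 CPM at chronic 14 d.

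The proteins with EMI or EGF-like domains, as in Egfem1, were also divided. Of 14 tested, 3 rose and 3 fell at chronic 24 h, with a median of 0.38, where 11.2% of all genes were called higher and 8.11% lower. Scube1 (3.76), Emilin2 (3.67) and Megf11 (3.26) rose. Emid1 fell by 3.32, from 12.1 to 1.17 CPM, Egfl7 fell by 1.23, and Egfl6, at 1.32 CPM in healthy, had no count at chronic 24 h. The elastic fibre protein Emilin1 was the most abundant of them at 3215 CPM in healthy HSCs and was not called (0.74). Emid1 held 3.75 CPM at acute 24 h and 3.95 CPM at chronic 14 d. Calls at acute 24 h were 1 higher and 2 lower, against 9.41% and 12.5% of all genes, and between chronic 24 h and chronic 14 d 3 rose and 2 fell, against 6.65% and 6.11%.

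The 3 genes were set beside genes described in resting HSCs and beside stellate cell markers. The study itself names Gfap, Ntm and Ngfr, from these libraries, as higher at chronic 14 d than at chronic 24 h. Their part in the counts below is therefore only a description. Of 11 quiescence genes, 5 fell and 1 rose at chronic 24 h, 6 fell and 1 rose at acute 24 h, and 5 rose between chronic 24 h and chronic 14 d. Of all genes, 8.11% were called lower and 11.2% higher in the first of these comparisons, 12.5% lower and 9.41% higher in the next, and 6.65% higher in the last. Gfap, an intermediate filament of resting HSCs, held 51.6 CPM in healthy, 11.7 CPM at acute 24 h, 5.88 CPM at chronic 24 h and 21.8 CPM at chronic 14 d. Ngfr, a neurotrophin receptor, held 230, 59.2, 30.9 and 138 CPM in these groups. Pparg, a regulator of lipid storage, rose by 2.33 from 0.946 to 4.87 CPM at chronic 24 h (edgeR adjusted p = 0.0199). Its highest mean was 7.19 CPM, at acute 7 d, where macrophage markers also summed highest (4024 to 10450 CPM). The part of other cells in the Pparg values was not tested. Of the 12 stellate cell markers 7 fell and 1 rose (Pdgfrb, 1.03) at chronic 24 h, Vipr1 and Colec11 by 3.29 and 2.94, where 8.11% of all genes were called lower and 11.2% higher. At acute 24 h 4 fell and 1 rose, and between chronic 24 h and chronic 14 d 5 rose and 1 fell, where 12.5% and 9.41% of all genes were called lower and higher at acute 24 h and 6.65% and 6.11% higher and lower at chronic 14 d.

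The genes whose pattern was most like each of the 3 were found by the root-mean-square (RMS) difference of log2 CPM, each gene centred on its mean over the 27 libraries, among 10292 genes. Nearest to Angptl6 were Dcdc2a (0.625), Epor (0.688), Mapt (0.696), Dll4 (0.714) and Pcsk6 (0.724). Nearest to Pcsk6 were Dcdc2a (0.562), Mapt (0.718), Angptl6 (0.724), Epor (0.730) and Lrrn3 (0.741). Angptl6 and Pcsk6 thus were on each other's lists, and shared Dcdc2a, Epor and Mapt. The 27 libraries include the healthy and chronic 24 h groups by which the 3 genes were chosen. Likeness among the 3 was therefore partly fixed by that choice and is only a description. Dcdc2a encodes a doublecortin protein of microtubules, Mapt the microtubule protein tau and Epor the erythropoietin receptor.

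Egfem1 had a list of its own, namely Ntm (0.622), Fcna (0.642), Dhh (0.828), Rgs7 (0.911) and Hhip (0.932), with Pcsk6 at rank 14 and Angptl6 at rank 43. Ntm, a neural adhesion protein, stood at 157 CPM in healthy, 56.1 CPM at acute 24 h and 6.52 CPM at chronic 24 h. Fcna, a lectin of the complement system, stood at 2041, 1113 and 130 CPM. Dhh is a hedgehog ligand and Hhip a protein that binds hedgehog ligands, and Hhip departed from Egfem1 at acute 24 h, where it was at 322 CPM against 126 CPM in healthy HSCs. With a Spearman correlation in place of the RMS difference, the lists kept 1 of 5 genes for Angptl6, 3 of 5 for Egfem1 and 1 of 5 for Pcsk6.

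**Figure D5:**
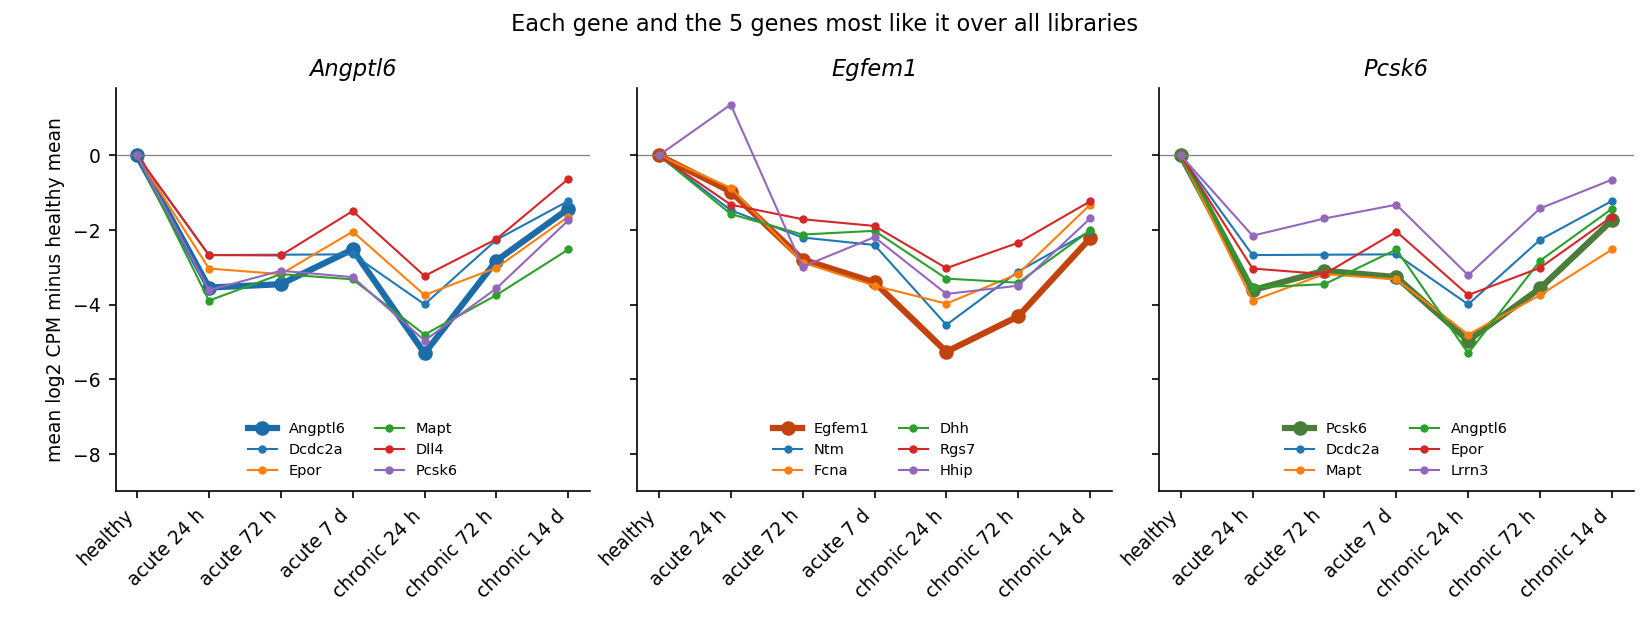
Mean log2 CPM minus the healthy mean by group for each gene (thick) and its 5 nearest genes by RMS difference over 27 libraries (thin). Pcsk6 and Angptl6 lie close together at acute 24 h (-3.61 and -3.54) and chronic 24 h (-4.96 and -5.30) and farther apart at acute 7 d (-3.26 and -2.52), and Hhip rises to 1.36 at acute 24 h where Egfem1 is at -0.97. The healthy and chronic 24 h groups were used to choose the 3 genes.

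Genes that lie over or inside the 3 were examined because reads can be shared and the strand setting of the counting is not given in the sources used here. A230050P20Rik runs on the opposite strand and overlaps the 3′ end of Angptl6 by 500 bases, 265 of them exonic in both. It held 32.2 to 313 CPM in healthy and 39.6 to 87.2 CPM at chronic 24 h, a fall of 1.82 on the log2 scale (edgeR adjusted p = 0.00485), and 118 to 131 CPM at acute 24 h, close to the Angptl6 level there. Without strand, reads from the overlap cannot be told apart. In the 7 comparisons between the other groups its edgeR adjusted p ran from 0.254 to 0.965. Gm20684 and Gm45213, which overlap Pcsk6, had 2 counts and 0 counts in all.

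Inside Egfem1, on its strand and outside its exons, lie 2 transcribed regions annotated without a coding sequence, Gm37965 at chr3:29219887-29221248 and Gm38029 at chr3:29174838-29176927. Gm37965 averaged 10.7 CPM in healthy, 4.79 CPM at acute 24 h, 2.35 CPM at acute 72 h and 0.384 CPM at acute 7 d, and Gm38029 averaged 2.75, 1.44, 0.345 and 0.0410 CPM. Egfem1 itself averaged 136, 69.2, 19.8 and 13.4 CPM in these groups. Between acute 24 h and acute 7 d Gm37965 fell by 3.61 (SE 1.00, edgeR adjusted p = 0.00607) and Gm38029 by 4.80 (SE 1.25, edgeR adjusted p = 0.00376), in the direction of Egfem1 (-2.37). Between chronic 72 h and chronic 14 d, where Egfem1 rose by 2.10, Gm37965 differed by 2.30 (SE 1.17, edgeR adjusted p = 0.386) and Gm38029 by 1.07 (SE 1.20, edgeR adjusted p = 0.764), at no more than 13 and 7 counts per library. Whether their reads come from the Egfem1 primary transcript was not tested. Mir551b and Mir21b, also inside Egfem1, had no counts.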

How the data were processed

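RNA of HSCs from male Balb/c mice was sequenced, giving 27 libraries in 7 groups. The study counts each repeat as a separate experiment, and each library is taken here to be a single mouse. The authors aligned single-end reads to GRCm38 with STAR and ran StringTie, as the labels and the study's methods state. They deposited raw counts, given as whole numbers for each Ensembl gene and not normalized. How reads were counted, the strand and the tool versions are not given in the sources used here. All columns were matched to a library, leaving 0 unmatched.

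Of 53379 genes, 16198 had no count and 53274 had an annotation in GENCODE M21. Filtering by group with filterByExpr in edgeR 4.0.16 (R 4.3.3) kept 18758. Effective library sizes came from the trimmed mean of M values, and a single robust quasi-likelihood fit used every library with 1 mean for each group. Calls required a change over 2-fold and a p, adjusted by Benjamini and Hochberg over all genes, below 0.05. CPM used the effective library sizes, and log2 CPM a prior count of 2. The SE was the fold change on the log2 scale over the square root of F, and 95% intervals used it. The edgeR p-values rest on the spread between libraries of a group, estimated for each gene over all 7 groups together. The 3 genes and all lists were chosen with earlier results of these data known. The 3 genes were tested in 7 comparisons and described in 9 that hold healthy or chronic 24 h libraries. The ratios were added after their values were seen. Named genes were the 3, the 5 most like each among genes averaging 3 or more on the log2 CPM scale, overlapping genes, and called members of the lists, with other members and examples chosen after their values were seen. One gene of a list is not reported here. The procedure was tested on simulated counts. Alternatives were other scalings, filters and thresholds, DESeq2 1.42.0, only the groups compared, a replicate block, depth classes split at 9 M counts, and leaving out each library.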

Additional observations from a re-analysis of the deposited data

How the results depend on the processing

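Of the values of the 3 genes under the alternatives in the tested comparisons, 365 kept their direction and their side of the threshold, 19 lost a call, 4 gained one and 2 changed sign. Of these 365, 21 at an adjusted p below 0.1 and 21 with no fold minimum reused the main estimates, so their direction could not change. Values that were called neither in the main fit nor in the alternative are also among the 365. Leaving out low-count filtering, the Angptl6 difference between chronic 14 d and chronic 72 h was 1.36 (edgeR adjusted p = 0.0589). With depth class as a term it was 1.16, and the differences between chronic 14 d and acute 7 d were 0.95 for Egfem1 and 1.45 for Pcsk6, none called, while Angptl6 at chronic 14 d relative to healthy moved to -1.91. In the lower depth class alone, the chronic 14 d minus chronic 72 h differences were 1.13 for Angptl6, 1.77 for Egfem1 and 1.72 for Pcsk6, not called with 2 libraries against 4. Egfem1 at chronic 72 h minus chronic 24 h was 0.36 in the higher and 1.65 in the lower class. DESeq2 called Angptl6 at chronic 14 d minus acute 7 d (1.03, DESeq2 adjusted p = 0.0368). The cause of these changes was not tested.

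Leaving out 1 library at a time, the log2 difference of Angptl6 ran from 0.88 to 1.35 at acute 7 d minus acute 24 h, from -0.05 to 0.45 at acute 72 h minus acute 24 h, from 0.68 to 1.15 at acute 7 d minus acute 72 h and from 1.25 to 1.49 at chronic 14 d minus chronic 72 h. Pcsk6 ran from 0.21 to 1.03 at acute 72 h minus acute 24 h and from -0.42 to 0.02 at acute 7 d minus acute 72 h, and Egfem1 from 0.98 to 1.41 at chronic 14 d minus acute 7 d. Signs turned for Angptl6 at acute 72 h minus acute 24 h, at -0.053 without acute 72 h replicate 2, and for Pcsk6 at acute 7 d minus acute 72 h, at 0.015 without acute 72 h replicate 3.

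Replicate numbers are shared by the groups, and the labels do not say whether they pair the mice. Deviations of same-numbered libraries from their group means had correlations from -0.172 to 0.172. Between chronic 72 h and acute 72 h these ran from 0.057 to 0.172. Such correlations cannot decide whether mice were paired or handled together. With a replicate block, Egfem1 fell by 1.86 between acute 24 h and acute 72 h (edgeR adjusted p = 3.68e-05), and no call of the 3 genes changed. Low counts limit Egfem1 at chronic 24 h, where 1 library held 18.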
